A study of Homo sapiens with 4 samples.

Results

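Ribosome biogenesis genes and the MYC network that is known to drive them were followed across 4 arrays of Z138 cells, an established human line of mantle cell lymphoma. The set was chosen by name, with earlier results of these data known. Its 42 genes encode MYC and its partners, nucleolar factors that process ribosomal RNA, and subunits and initiation factors of RNA polymerase I. In the platform annotation, 35 of the 42 had at least 1 probe set assigned to a single gene symbol, and these 35 all passed the filter on dim signals described below. The series as a whole had 19775 such genes, of which 11940 passed that filter and were tested. MXD4, NOP56, DKC1, BOP1, GNL3, DDX18 and PPAN had no probe set of a single symbol and were not analysed here. The arrays measured total RNA of cells that carried stable lentiviral short hairpin RNAs. In the shControl group, 1 array held cells with the scrambled hairpin shControl.1 and 1 held cells with shControl.2. In the shSOX11 group, 1 array held cells with the hairpin shSOX11.1 and 1 held cells with shSOX11.3, both aimed at SOX11, a transcription factor typical of this lymphoma. All 4 samples thus share the parent line and stable lentiviral transduction with a hairpin, and the series design calls the transduced cells clones. Each array stands for a different hairpin, and separate cultures are not named. A p-value here therefore speaks of the spread among these 4 samples alone. In that spread, differences between hairpins and technical ones cannot be told apart.

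Ribosome production starts in the nucleolus, where RNA polymerase I copies the ribosomal DNA into a long precursor. Small nucleolar ribonucleoproteins modify that precursor, and many processing factors cut and fold it into the small and the large subunit. MYC, which binds DNA as a dimer with MAX, is a well known activator of genes at each of these steps, and MNT and the MXD proteins compete with it for MAX. Nucleolar activity of this kind is a regular feature of fast-growing B-cell cancers, and the comparison asked how these genes stood when SOX11 was reduced.

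With the SOX11 hairpins the SOX11 signal at its brightest probe set was 42.5% of the control level (797 with shControl.1 and 787 with shControl.2, then 335 with shSOX11.1 and 339 with shSOX11.3; limma adjusted p = 0.132). Of 5 B-cell markers on the arrays 4 were above the signal threshold of 24.8 on all 4 arrays, as were both mantle cell lymphoma markers, while GNLY, CD14, LYZ, S100A8 and EPCAM, markers of other cell types, were under it on all 4. Above it on all 4 were 1 of 6 T and NK cell markers, 0 of 6 myeloid, the 1 measured erythroid and 4 of 6 epithelial and stromal markers. The summed signal of the B-cell markers moved with the groups, at 11439 and 10844 with the shControl hairpins and 8321 and 9758 with shSOX11.1 and shSOX11.3. Among them CD79B stood at 916 and 992 against 535 and 658, and PAX5 at 1845 and 1666 against 646 and 1449.5. Of the epithelial and stromal markers PECAM1 was higher, at 212 and 280 against 483 and 387. The other markers of that list overlapped between the groups, as did its summed signal (1390 and 1409 against 1633 and 1355). The part of these markers in the results below was not tested. All 4 samples are of the same cell line. In bulk RNA such as this, a lower signal in a part of the cells and in all of them cannot be told apart. Median signals were between 25.3 and 25.7 in the shControl group and between 23.9 and 24.3 in the shSOX11 group. Beta-actin control probe sets gave 3′ signals 11.6 times their 5′ signals with either shControl hairpin, 7.29 times with shSOX11.1 and 5.31 times with shSOX11.3, a ratio that reflects RNA length and labelling. That ratio moved with the groups. The same ratio for GAPDH did not, at 0.978 and 1.06 with shControl.1 and shControl.2 and 1.01 and 1.03 with shSOX11.1 and shSOX11.3. The part of these ratios in the results below was not tested. Only 2 arrays per group limit the precision of every value. None of the 11940 genes passed the threshold of 0.05 in limma with Benjamini-Hochberg adjustment (0% called), and 1001 had an unadjusted p under 0.05 (8.38%), so no member or other gene named below differed beyond the spread between arrays after adjustment. With 2 arrays a group, the smallest two-sided p of an exact permutation test is 0.33.

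Most members had slightly lower signals in the cells with SOX11 hairpins. Of the 35 members 29 had a log2 change below 0 and 6 above it, beside 6932 and 5008 of all 11940 genes, where a log2 change is the mean log2 signal of the shSOX11 arrays minus that of the shControl arrays. For 18 members both shSOX11 arrays lay under both shControl arrays, where 24.9% of all genes tested did so, and for 3 members (HEATR1, NOC3L and RRN3) both lay above, where 16.1% of all genes did. The differences were small. The median log2 change was -0.18 over the members against -0.063 over all genes, the lowest was -0.47 (NOP2) and the highest 0.41 (RRN3), and 0 members reached a log2 change of 0.5 in either direction, a size that 17.1% of all genes exceeded. At an unadjusted limma p under 0.05 there were 2 members, NOP2 and MNT, both lower, where 4.98% of all genes were lower at that p and 3.4% higher, so that by this measure the members lay near the background. A 1.5-fold difference on all 4 pairs of arrays was found in 0 members, and in 1.93% of all genes towards lower and 0.762% towards higher signals. The adjusted limma p of the members ranged from 0.509 to 0.962. When each array was centred on its own median signal, 26 members had changes below 0 and 9 above, 13 members lay lower on both shSOX11 arrays (17.6% of all genes) and 4 higher (23.3%). Centring raised every log2 change by the same amount, and the all-gene median from -0.063 to 0.020. Over all genes that centring turned the 595 lower and 406 higher genes at an unadjusted p under 0.05 into 374 and 686.

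**Figure D1:**
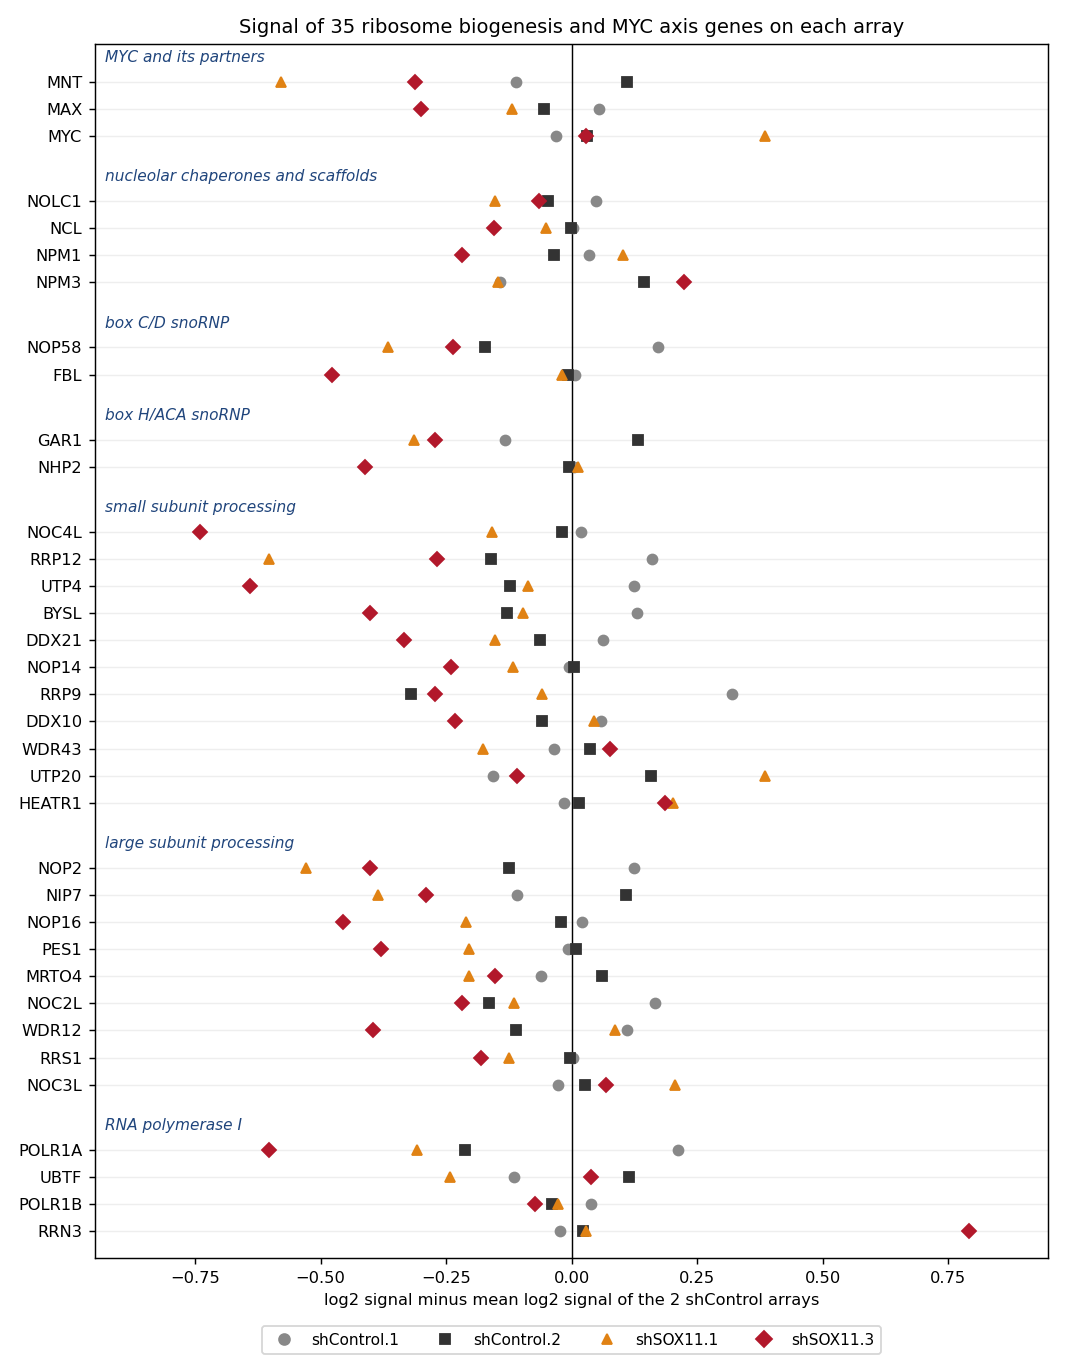
Log2 signal of each of the 35 members on the 4 arrays, drawn as the difference from the mean of the 2 shControl arrays on the horizontal axis, with genes in rows by role. Circles and squares are the shControl arrays, triangles shSOX11.1 and diamonds shSOX11.3. Most triangles and diamonds lie left of 0, and diamonds lie farthest left in NOC4L, UTP4 and POLR1A, while the diamond of RRN3 lies farthest right at 0.79.

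**Figure D2:**
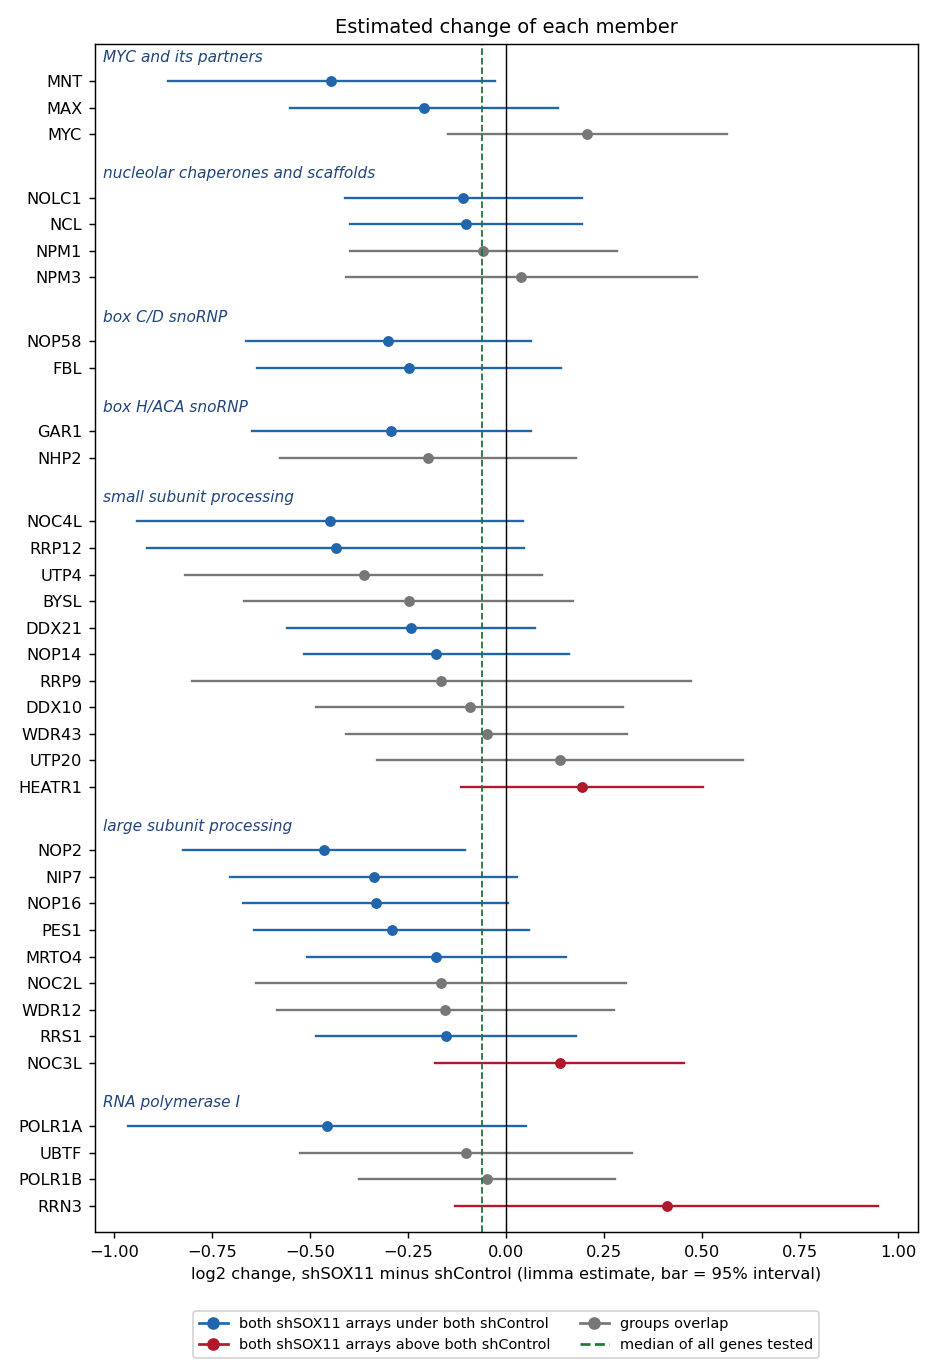
Limma estimate of the log2 change (shSOX11 minus shControl) of each member with its 95% interval, genes in rows by role. Blue marks the 18 members with both shSOX11 arrays under both shControl arrays, red the 3 with both above, grey the overlapping ones. The dashed line is the median of all genes tested, -0.063, and only the intervals of NOP2 and MNT leave out 0.

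The canonical E-box CACGTG is the DNA element that MYC and MAX dimers are known to recognise. Promoter sequence was not searched in choosing the members. They were named as MYC, its partners and genes that MYC is known to drive. Their share of E-boxes is therefore not independent of that choice. RefSeq promoter windows (GRCh38.p14) of 300 bases, from 250 before the transcription start to 50 after it, were available for 30 of the 35 measured members. The motif reads the same on both strands and was searched once per window. It was present in the windows of 14 of these 30 members (46.7%), against 12.7% of the 9707 tested genes with a window and 8.77% of all 27305 genes with a window. In 13 of the 14 it lay within 50 bases of the start. An E-box at that position was found in 43.3% of the members and 5.49% of the tested genes. Wider pathway lists, described further below, held it too, counted over all listed genes with a window, measured or not. Further 40S factors had the motif in 35.4% of genes and within 50 bases of the start in 29.2%. For further 60S factors the shares were 30.4% and 21.7%, and for RNA polymerase III genes 41.2% and 17.6%. Apart from the MYC targets given below, the remaining lists ranged from 0% to 22.2% and, within 50 bases, from 0% to 14.3%. The scrambled palindrome GTGCAC, made of the same letters, was found in 10% of the members and 6.64% of the tested genes. It lacks the CG step inside the E-box and is not matched to it in that respect. The median GC content of the windows was 64% in the members and 64.3% in the tested genes. A match is a description of the letters in these windows and does not show that a factor was bound. The stretches below are shown because they belong to members with separated groups, the first 8 lower and NOC3L higher on both shSOX11 arrays, with the E-box in capitals and up to 12 bases on each side, 5′ to 3′ in the direction of the gene.
NOP2: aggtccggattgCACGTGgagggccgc
MNT: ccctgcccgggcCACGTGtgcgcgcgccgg
GAR1: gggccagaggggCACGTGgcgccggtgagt
PES1: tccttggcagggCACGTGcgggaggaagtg
DDX21: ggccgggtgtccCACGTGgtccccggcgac
FBL: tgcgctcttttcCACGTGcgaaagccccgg
MRTO4: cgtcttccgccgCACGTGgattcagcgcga
NOP14: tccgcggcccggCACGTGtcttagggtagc
NOC3L: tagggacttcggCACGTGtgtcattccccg

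These stretches lay at chr12:6568242-6568268 (NOP2, minus strand), chr17:2401236-2401265 (MNT, minus strand), chr4:109815781-109815810 (GAR1, plus strand), chr22:30591880-30591909 (PES1, minus strand), chr10:68956604-68956633 (DDX21, plus strand), chr19:39846356-39846385 (FBL, minus strand), chr1:19251807-19251836 (MRTO4, plus strand), chr4:2963374-2963403 (NOP14, minus strand) and chr10:94362903-94362932 (NOC3L, minus strand). Counted from the transcription start, the E-box began at base 36 of NOP2, 32 of GAR1, 20 of NOC3L, 16 of NOP14, 15 of MRTO4, 14 of PES1 and 7 of FBL, inside the transcribed part. In DDX21 it began at base -31 and in MNT at base -193, in the flanking DNA before the start. The remaining members with the motif were BYSL, RRP9, UTP4, UTP20 and WDR43, all of the small subunit group. The 14 members with the motif had a median log2 change of -0.25, with 8 lower and 1 higher on both shSOX11 arrays. The 16 members whose windows lacked it had a median of -0.13, with 6 lower and 2 higher. Over all tested genes 26.9% of the 1235 with the motif were lower on both shSOX11 arrays and 24.5% of the 8472 without it, and the medians were -0.075 and -0.059. Whether genes with and without the motif differ was not tested, among the members or over all genes. By role, windows of the small subunit group held the motif in 7 of 10 genes and those of the large subunit group in 5 of 10, the unmeasured GNL3 among them. The scrambled GTGCAC was found in 3 of those 10 large subunit genes and in no other member with a window. The E-box was in 2 of 3 genes of the MYC and partners group, MNT and the unmeasured MXD4, and in 1 of 2 box C/D and 1 of 3 box H/ACA genes, while it was found in 0 of 4 RNA polymerase I genes and 0 of 3 nucleolar chaperones and scaffolds.

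**Figure D3:**
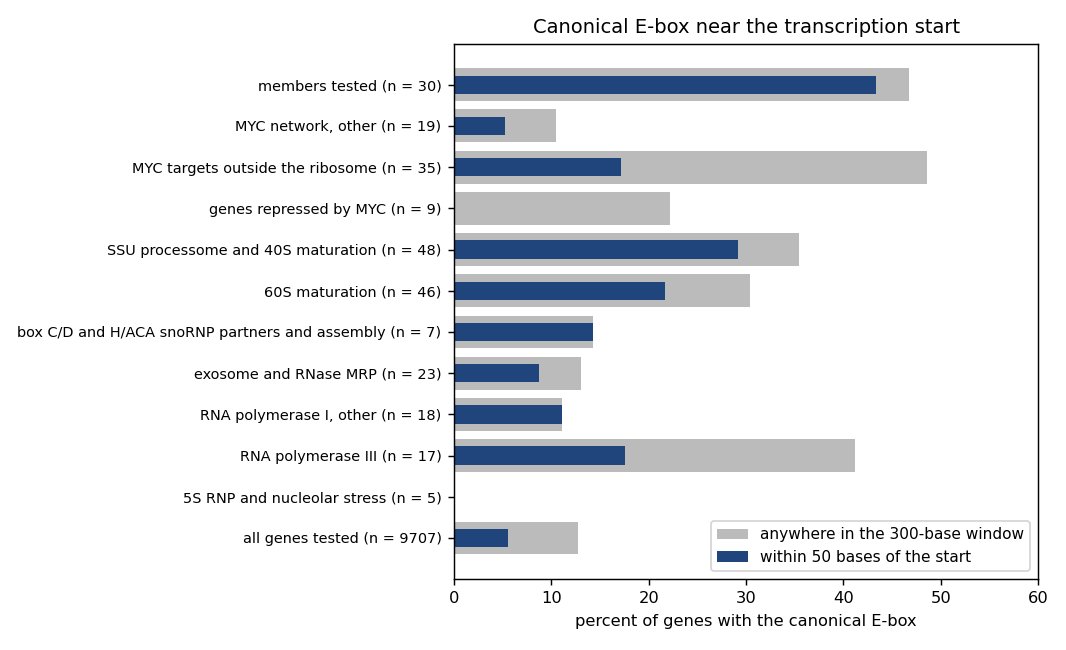
Share of genes whose RefSeq promoter window holds the canonical E-box, in percent on the horizontal axis, for the measured members, the wider pathway lists and all tested genes, with the number of genes with a window in brackets. Grey bars count the whole window and blue bars the 50 bases on either side of the start. The members stand at 46.7% and 43.3%, all tested genes at 12.7% and 5.49%.

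MYC itself, the activator at the head of this set, was not lower. Its signal was 5501 with shControl.1, 5739.9 with shControl.2, 7339 with shSOX11.1 and 5729 with shSOX11.3. The array of shSOX11.1 was the highest and that of shSOX11.3 lay between the shControl arrays, so the groups overlapped. The log2 change was 0.21 (SE 0.16, 95% interval -0.15 to 0.56; limma adjusted p = 0.704), and relative to the control mean shSOX11.1 stood at 0.39 and shSOX11.3 at 0.028. MAX, the obligate partner of MYC, was at 1286 with shControl.1, 1192 with shControl.2, 1141 with shSOX11.1 and 1005 with shSOX11.3. Both shSOX11 arrays were the lower ones, with a log2 change of -0.21 (SE 0.15, interval -0.55 to 0.13). Its 4 other probe sets past the filter disagreed, at 0.22, -0.37, 0.87 and 0.39, and the mean of its probe sets was 0.18, the opposite direction. MNT, a MAX-binding repressor that antagonises MYC, stood at 354 with shControl.1, 412 with shControl.2, 255 with shSOX11.1 and 307 with shSOX11.3, and the mean log2 signal was 8.58 ± 0.16 in shControl and 8.13 ± 0.19 in shSOX11 (SD, n = 2 per group). It was 1.36-fold lower, and the arrays of the groups did not overlap (log2 change -0.45, SE 0.18; limma adjusted p = 0.569). The other MNT probe set, close to the threshold at 32.8 and 48.7 against 54.8 and 34.1 (shControl against shSOX11), had a log2 change of 0.11.

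The nucleolar chaperones and scaffolds differed little between the groups. Nucleolin (NCL), which binds nascent ribosomal RNA, was at 9155 with shControl.1, 9127 with shControl.2, 8821 with shSOX11.1 and 8209 with shSOX11.3. Both shSOX11 arrays were slightly lower (log2 change -0.10, SE 0.13), and the change turned to 0.039 after quantile normalization. Nucleophosmin (NPM1), a histone and ribosome chaperone, was at 13945 with shControl.1, 13279 with shControl.2, 14599.5 with shSOX11.1 and 11689 with shSOX11.3. Its shSOX11 arrays were the highest and the lowest of the 4, so the groups overlapped. The log2 change of NPM1 was -0.059 (SE 0.15, interval -0.40 to 0.28) and became 0.13 after quantile normalization and 0.024 after median centring. The other NPM1 probe sets lay at -0.091 and -0.34. NPM3, a relative of nucleophosmin, had a log2 change of 0.039. NOLC1, a scaffold that ties small nucleolar ribonucleoproteins to RNA polymerase I, had -0.11 with separated groups at its brightest probe set, but 0.17 and 0.26 at the other ones.

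Measured genes for core proteins of the small nucleolar ribonucleoproteins all had mean log2 changes below 0, as 6932 of all 11940 genes had. The groups were separated in FBL, NOP58 and GAR1 and overlapped in NHP2. Of all genes 24.9% were lower on both shSOX11 arrays. Fibrillarin (FBL), the enzyme that adds 2′-O-methyl groups to ribosomal RNA, was at 6736 with shControl.1, 6673 with shControl.2, 6615 with shSOX11.1 and 4818 with shSOX11.3. The array of shSOX11.1 lay only just under the shControl arrays, and that of shSOX11.3 carried most of the difference (log2 change -0.019 and -0.48; mean -0.25, SE 0.17; limma adjusted p = 0.678), and after quantile normalization the mean was -0.15. NOP58, which holds box C/D guide RNAs together with fibrillarin, was at 4453 with shControl.1, 3504 with shControl.2, 3066 with shSOX11.1 and 3355 with shSOX11.3. Here both shSOX11 arrays were low, and the arrays of shControl differed more from each other than the nearest ones of the groups did (log2 change -0.30, SE 0.16, interval -0.66 to 0.063). GAR1, of the box H/ACA particles that guide pseudouridine formation, was at 1088 with shControl.1, 1308 with shControl.2, 960.2 with shSOX11.1 and 987 with shSOX11.3, 1.23-fold lower with no overlap (log2 change -0.29, SE 0.16). NHP2, also of box H/ACA particles, had the pattern of fibrillarin, at 0.013 on shSOX11.1 and -0.41 on shSOX11.3, with a mean of -0.20 that was -0.10 after quantile normalization.

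Among the 11 factors of small subunit processing 9 had log2 changes below 0, and the groups were separated in 4 of them (NOC4L, RRP12, DDX21 and NOP14) and, in the other direction, in HEATR1. Of all 11940 genes 6932 had changes below 0, and 24.9% were lower and 16.1% higher on both shSOX11 arrays. NOC4L, which works with NOP14 on the small subunit precursor, was at 384 with shControl.1, 373 with shControl.2, 339 with shSOX11.1 and 227 with shSOX11.3. All shSOX11 values were lower, but shSOX11.3 stood far below shSOX11.1 (-0.74 against -0.16; mean -0.45, SE 0.22; limma adjusted p = 0.598). RRP12, a factor in the export of subunit precursors, was at 261 with shControl.1, 209 with shControl.2, 154 with shSOX11.1 and 194 with shSOX11.3. Its low value was that of shSOX11.1, the reverse of NOC4L (-0.60 against -0.27; mean -0.44, SE 0.21). UTP4, of the complex that first joins the nascent precursor, was at 3068 with shControl.1, 2584 with shControl.2, 2652 with shSOX11.1 and 1805 with shSOX11.3. Only shSOX11.3 was low, and shSOX11.1 lay between the shControl arrays (log2 change -0.36, SE 0.20). The RNA helicase DDX21, which links RNA polymerase I transcription with processing, was at 8659 with shControl.1, 7930.1 with shControl.2, 7455 with shSOX11.1 and 6578 with shSOX11.3. Its groups were separated by a narrow gap (log2 change -0.24, SE 0.14, interval -0.56 to 0.073), and the change was -0.10 after quantile normalization.

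The remaining small subunit factors differed less or in the other direction. NOP14 had a log2 change of -0.18, with shControl arrays that nearly coincided and shSOX11 arrays below them (825 and 831 against 763 and 701). BYSL, RRP9, DDX10 and WDR43 had overlapping groups and changes between -0.25 and -0.050. UTP20 was at 0.14, with shSOX11.1 the highest of the 4 arrays and shSOX11.3 among the controls. HEATR1, which also supports RNA polymerase I transcription, was at 1780.3 with shControl.1, 1816 with shControl.2, 2068 with shSOX11.1 and 2046 with shSOX11.3. Both shSOX11 arrays were higher by almost the same amount (0.20 and 0.19; mean 0.19, SE 0.14; limma adjusted p = 0.684). Of its 4 other probe sets past the filter 1 was likewise higher (1583 and 1386 against 2148 and 1782, shControl against shSOX11; 0.40), 1 was lower (477 and 558 against 472 and 412; -0.23), and the 2 dimmest had changes of 0.86 and 0.087.

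Large subunit processing held the member of smallest p. NOP2, a methyltransferase of the large ribosomal RNA and a long-known proliferation antigen, was at 1234 with shControl.1, 1039.7 with shControl.2, 785 with shSOX11.1 and 857 with shSOX11.3. Both shSOX11 arrays lay clearly under the shControl arrays, and the mean log2 signal was 10.15 ± 0.18 in shControl and 9.68 ± 0.09 in shSOX11 (SD, n = 2 per group). NOP2 was 1.38-fold lower, at 72.4% of the control level (log2 change -0.47, SE 0.16, interval -0.83 to -0.11; limma adjusted p = 0.509). NOP2 has 1 probe set, so no other probe set bears on it. NOP16 was at 2159 with shControl.1, 2098 with shControl.2, 1839 with shSOX11.1 and 1553 with shSOX11.3. Its groups were apart, with the lowest value on shSOX11.3 (log2 change -0.33, SE 0.15), and another probe set past the filter, at 1369.8 and 1128 against 1103 and 985, had a log2 change of -0.25. NIP7, a pre-ribosomal RNA processing factor, was at 637 with shControl.1, 741 with shControl.2, 526 with shSOX11.1 and 561 with shSOX11.3. The groups did not overlap (log2 change -0.34, SE 0.16), but its other probe set, at 561 and 616 against 505 and 711, had a log2 change of 0.028.

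PES1, which forms the PeBoW complex of large subunit maturation with BOP1 and WDR12, was at 756 with shControl.1, 765 with shControl.2, 660.0 with shSOX11.1 and 584 with shSOX11.3. The shControl arrays nearly coincided and both shSOX11 arrays were lower (1.22-fold; log2 change -0.29, SE 0.15). Its partner WDR12 had overlapping groups, shSOX11.1 standing at 0.086 and shSOX11.3 at -0.40, and BOP1 was not analysed here. MRTO4 and RRS1, both assembly factors of the large subunit, were lower on both shSOX11 arrays, with log2 changes of -0.18 and -0.15. NOC2L overlapped at -0.17. Its other probe set was at 9.96 and 1.81 against 27.2 and 39, under the threshold on both shControl arrays, so its log2 change of 2.94 has no measured control level behind it. NOC3L, with an E-box shown above, was higher on both shSOX11 arrays, by 0.14 (SE 0.14).

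The 4 RNA polymerase I genes had no common direction. POLR1A, the largest subunit, was at 242 with shControl.1, 180.2 with shControl.2, 168 with shSOX11.1 and 137 with shSOX11.3. The shSOX11 arrays were lower, with shSOX11.1 close to shControl.2 (log2 change -0.46, SE 0.22, interval -0.96 to 0.051; limma adjusted p = 0.598), while its other probe sets had log2 changes of 0.11 and 0.19. POLR1B, which forms the catalytic core with POLR1A, was at 1091 with shControl.1, 1035 with shControl.2, 1042 with shSOX11.1 and 1011 with shSOX11.3. Its groups overlapped (log2 change -0.050, SE 0.14, interval -0.38 to 0.28; 0.033 after median centring). UBTF, which binds the ribosomal DNA promoter, was at 299 with shControl.1, 350.5 with shControl.2, 274 with shSOX11.1 and 332 with shSOX11.3. The values of the groups interleaved (log2 change -0.10, SE 0.19), and all 4 of its probe sets past the filter had changes below 0, from -0.79 to -0.067. RRN3, the initiation factor that recruits the polymerase in response to growth signals, was at 711 with shControl.1, 734 with shControl.2, 737 with shSOX11.1 and 1251 with shSOX11.3. The higher mean came from shSOX11.3 (0.79 against 0.028 on shSOX11.1; mean 0.41, SE 0.24, interval -0.13 to 0.95).

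The arrays of the hairpins against SOX11 differed from each other in these genes. Relative to the control mean, the median log2 difference of the 35 members was -0.12 for shSOX11.1 but -0.24 for shSOX11.3, where all genes had medians of -0.0043 and -0.098. The members thus lay below the median of all genes on each array. The signal on shSOX11.3 was below that on shSOX11.1 in 23 of the 35 members, against 58.8% of all genes. The median absolute log2 difference between the shSOX11 arrays was 0.24 over the members, larger than the 0.12 between the shControl arrays, and all genes showed the same order (0.30 and 0.18). Leaving out 1 array mattered for the counts. At an unadjusted limma p under 0.05 there were 14 members without shSOX11.1 and 7 without shSOX11.3, where 24.8% and 15.4% of all genes were called, and 0 and 1 without shControl.1 and without shControl.2 (2.85% and 3.05%). Without shSOX11.1, FBL, NHP2, UTP4, NOC4L, DDX21, NOP16 and RRN3 passed the adjusted limma threshold, as did 953 of all genes, with the spread then taken from the shControl pair. Without shSOX11.3, 7 members were higher on the remaining shSOX11 array than on both controls (36.1% of all genes), and without shSOX11.1 or shControl.2 there were 5 each (29.3% and 26.7%). Lower on all remaining pairs were between 19 and 26 members, where 36.6% to 48.6% of all genes were.

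Probe sets of the same gene often disagreed at differences of this size. Of the 35 members 17 had more than 1 probe set past the filter, and in 11 of these the probe sets lay on both sides of 0. Over all genes the probe sets were opposed in 51.6% of 5816 genes. The 11 were MAX, MNT, NOLC1, RRP12, HEATR1, WDR12, NOC2L, NIP7, MRTO4, POLR1A and POLR1B, while NCL, NPM1, UTP4, DDX21, NOP16 and UBTF had all probe sets below 0. With the mean of each gene's probe sets, 13 members were lower and 5 higher on both shSOX11 arrays (23.5% and 18.3% of all genes), and the median log2 change was -0.16 against -0.042 over all genes. That mean brought MNT to -0.17, RRP12 to -0.21, UTP4 to -0.23, NIP7 to -0.16, DDX21 to -0.15, MRTO4 to -0.068 and POLR1A to -0.054.

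**Figure D4:**
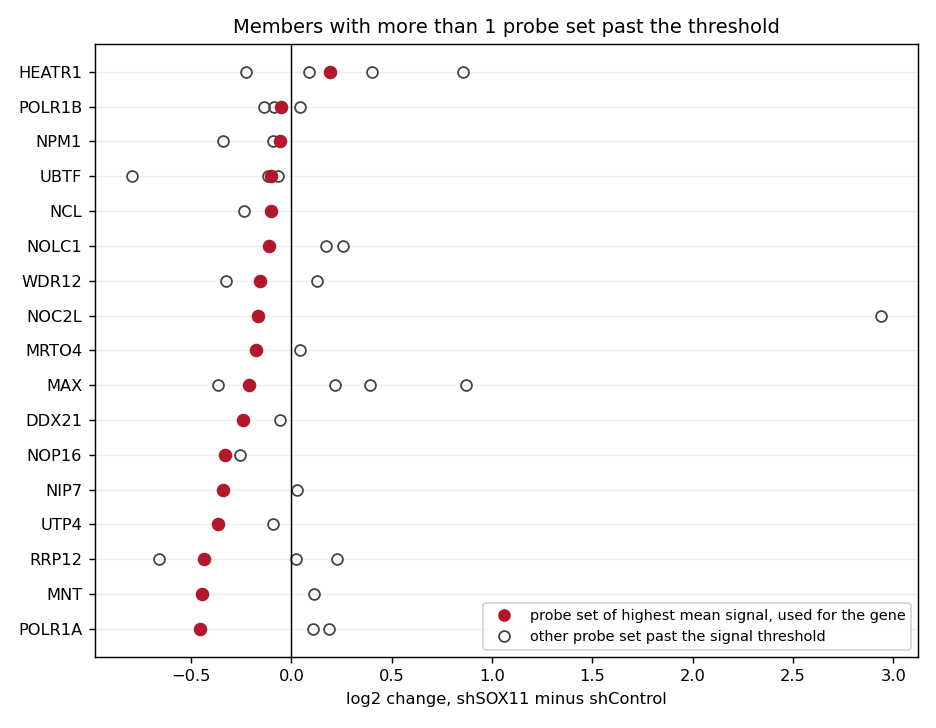
Log2 change (shSOX11 minus shControl) of every probe set past the signal threshold for the 17 members with more than 1, on the horizontal axis. Filled points are the probe sets of highest mean signal, used for the gene, and open points the others. In 11 genes the points fall on both sides of 0, and the open point of NOC2L at 2.94 comes from signals near or under the threshold.

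Other genes of these pathways had medians below 0 in each of 10 lists, as all genes had. The lists were written from textbook knowledge, with earlier results of these data known. Of 53 further factors of the small subunit processome and 40S maturation 22 were lower and 3 higher on both shSOX11 arrays, with a median log2 change of -0.13, beside 24.9% and 16.1% of all genes and their median of -0.063. The genes of smallest p there were RRP7A (-0.55, SE 0.18, from a probe set whose _x_at suffix marks shared sequence) and the ribosomal RNA methyltransferase EMG1, at 2848 and 2821 against 2292 and 1878. Of 48 further 60S maturation factors 22 were lower and 2 higher, with a median of -0.15. MYBBP1A, a nucleolar repressor that binds MYB, was at 293 and 243 against 198 and 162 (-0.58, SE 0.20), and the SUMO protease SENP3 at 275 and 250.7 against 141 and 212 (-0.60, SE 0.23). At an unadjusted limma p under 0.05 were 3 small subunit and 4 large subunit factors, all lower, where 4.98% of all genes were lower at that p and 3.4% higher, and 0 passed after adjustment.

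In the lists that follow, the shares of all genes to set beside the counts were again 24.9% lower and 16.1% higher on both shSOX11 arrays, and 4.98% lower and 3.4% higher at an unadjusted limma p under 0.05. Exosome and RNase MRP genes (24 tested) had 10 lower and 3 higher and a median of -0.13, with 3 lower and 2 higher at that p. The nuclear RNA helicase MTREX was at 1092 and 978 against 1353 and 1385 (0.41, SE 0.15) and the RNase MRP subunit POP7 at 1584 and 1518 against 1315 and 956 (-0.47, SE 0.18). Other RNA polymerase I genes (20 tested) had 4 lower and 1 higher, a median of -0.12, and 4 genes lower and 0 higher at that p. Among them were the termination factor TTF1 (-0.43, SE 0.15) and the polymerase subunit POLR1G (-0.50, SE 0.18). RNA polymerase III genes (20 tested) had 6 lower and 3 higher, and 0 at that p, with GTF3C3 at 0.33 and GTF3C2 at -0.33. Assembly factors and partners of the small nucleolar ribonucleoproteins (11 tested) had 2 lower and 2 higher, and 0 lower and 1 higher at that p, with RPAP3 at 0.40 and TCOF1 at -0.31, and a median of -0.027 that turned to 0.056 with median centring. Of the 4 tested genes of the 5S particle and nucleolar stress 3 were lower, among them the ribosomal protein gene RPL11 (14378 and 14468 against 13225 and 11308; -0.24, SE 0.14). CDKN2A was near or under the threshold on all arrays.

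MYC-related genes outside ribosome production were described in the same way. In the wider MYC network 5 of 18 were lower and 1 higher, with a median of -0.14. SIN3A, a corepressor that MXD proteins bring to DNA, was at 435 and 422 against 294 and 348 (-0.42, SE 0.17), and MYCL was at -0.84 on signals from 54.9 down to 21.4, under the threshold with shSOX11.3. Of 33 MYC targets outside the ribosome 8 were lower (24.2%, beside 24.9% of all genes) and 2 higher, with a median of -0.12. The prohibitin PHB2 was at 8675 and 8630.0 against 4215 and 7329, lowest on shSOX11.1 (-0.64, SE 0.23), and the cell cycle factor E2F2 at 671 and 696 against 529.6 and 516 (-0.39, SE 0.15). Of 8 tested genes that MYC is known to repress, 2 were lower (25%, beside 24.9% of all genes) and 1 higher (12.5%, beside 16.1%). By these shares the list lay near the background. Its median was -0.24, and NDRG2 was partly under the threshold, at 53.2 and 9.35 against 5.62 and 37.4. Smallest p there had GADD45B, lower on both shSOX11 arrays (771 and 791 against 683 and 525; -0.38, SE 0.17), and TXNIP, whose groups overlapped (469 and 355 against 407 and 211; -0.48, SE 0.30). Promoter windows held the E-box in 17 of the 35 listed MYC targets outside the ribosome with a window, measured or not (48.6%). The share was 46.7% in the measured members and 12.7% in the tested genes. Within 50 bases of the start the shares were 17.1%, 43.3% and 5.49%. These targets were listed as genes that MYC is known to drive, so their share is not independent of that choice. All these lists are described by counts and medians alone, and whether any list differs from the other genes was not tested.

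**Figure D5:**
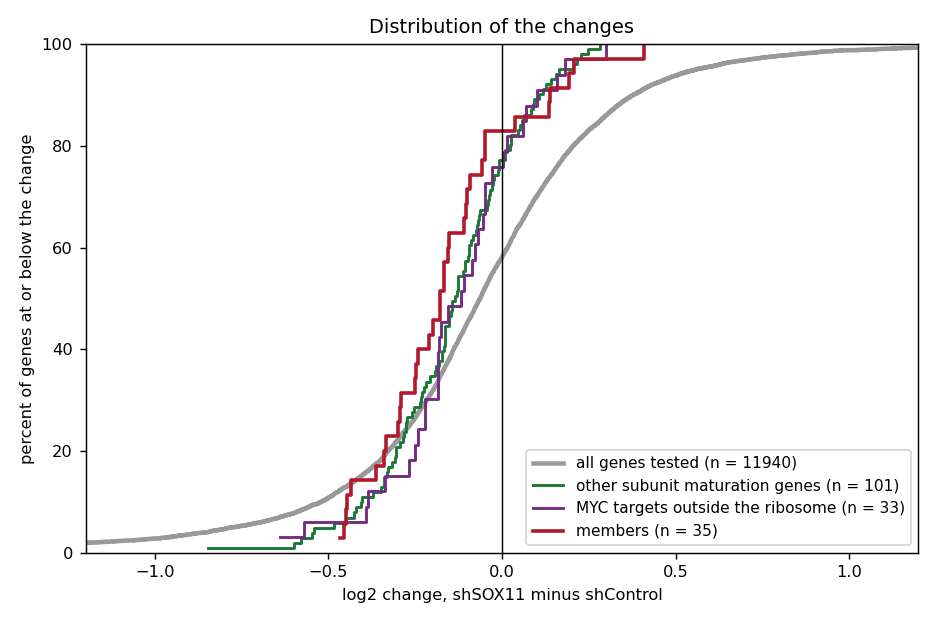
Cumulative distribution of the log2 change (shSOX11 minus shControl, horizontal axis) for the 35 members, 101 other subunit maturation genes, 33 MYC targets outside the ribosome and all 11940 genes tested, with the percent of genes at or below each value on the vertical axis. The members' median lies at -0.18 and that of all genes at -0.063. The line of all genes has longer tails on both sides, and the members stay between -0.47 and 0.41.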

How the data were processed

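Total RNA of 4 samples was hybridised to Affymetrix U133 Plus 2.0 arrays (biotin label, 1 array per sample, per the labels). Deposited was 1 intensity per probe set, the authors' MAS5 signal, linear and not log-transformed. The submitters' processing notes name Affymetrix Expression Console and MAS5, with versions not given in the sources used. The 2% trimmed mean was 150 on each array, so signals were taken to log2 with no pseudocount and no further normalization. MAS5 makes low signals noisy.

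Of 54675 probe sets 62 were controls, 41091 had 1 symbol, 1801 several and 11721 none. A probe set was kept above 24.8, the median of all signals, on at least 2 arrays, and each gene took its kept probe set of highest mean log2 signal. Groups came from the sample titles. The test of differences was that of limma 3.58.1, run in R 4.3.3 (lmFit, eBayes with an intensity trend, two-sided, 2 residual and 8.39 moderated degrees of freedom, Benjamini-Hochberg over 11940 genes). The procedure was also run on simulated data. There the noise was independent and of equal spread in both groups, with no shift of whole arrays, so departures from this were not covered. Promoter windows and names came from RefSeq tables (GRCh38.p14). The file names no build, and coordinates are those of the promoter table. The members, lists and tests were chosen with earlier results of these data known. Values were given in full for MYC, MAX, NCL, NPM1, FBL, POLR1A, POLR1B, UBTF and the 12 members of smallest p, with the 2 genes of smallest p per wider list. HEATR1, RRN3, NHP2, NOP14, NOC2L, NOC3L and the other members given by their log2 change were described after their values were seen. Alternatives tried were median centring, quantile normalization, no filter, a pseudocount of 32, averaging all kept probe sets of a gene, no probe sets ending in _x_at, limma without the trend or robust, and leaving out each array.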

Additional observations from a re-analysis of the deposited data

How the results depend on the processing

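With 2 arrays per group and MAS5 signals that are noisy near the threshold, no member was called by the adjusted test with all 4 arrays. No gene passed the adjusted limma threshold with all 4 arrays, under any setting tried. The members' median stayed below 0 in every setting, nearest to 0 after median centring (-0.10), and lay under the all-gene median throughout. Members at an unadjusted limma p under 0.05 numbered 4 after quantile normalization (8.35% of all genes), 1 after median centring (8.88%) and 0 without the intensity trend (7.46%). With the mean of each gene's probe sets 5 members were higher on both shSOX11 arrays.

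Quantile normalization turned the log2 change of NCL to 0.039 and of NPM1 to 0.13, and moved the 5S particle median to -0.12. Median centring turned NPM1 to 0.024, WDR43 to 0.033 and POLR1B to 0.033, and gave list medians of -0.043 (40S), -0.062 (60S), 0.056 (small nucleolar partners), -0.046 (exosome), -0.032 (RNA polymerase I), -0.060 (RNA polymerase III) and -0.13 (5S particle). The mean of probe sets turned MAX to 0.18, NOLC1 to 0.11 and NOC2L to 1.39, and gave medians of -0.39 (repressed by MYC), -0.084 (40S), -0.11 (60S), 0.071 (small nucleolar partners) and 0.056 (5S particle). Without probe sets ending in _x_at the 5S particle median was -0.088. The causes were not tested.

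Leaving out each array in turn gave 0 to 953 genes past the adjusted limma threshold, the highest without shSOX11.1 and 211 without shSOX11.3, when the lone shSOX11 array was assumed to vary like the shControl pair. Without shSOX11.1 the members FBL, NHP2, UTP4, NOC4L, DDX21, NOP16 and RRN3 were among them, with adjusted limma p from 0.0119 to 0.0466. Genes at an unadjusted p under 0.05 numbered 340 to 2967, and members 0 to 14. Members higher on all remaining pairs numbered 4 to 7. Their median ranged from -0.24 to -0.12. List medians ranged from -0.21 to -0.0095 (MYC network), -0.20 to -0.0066 (MYC targets), -0.33 to -0.044 (repressed by MYC), -0.12 to -0.075 (40S), -0.17 to -0.10 (60S), -0.064 to 0.038 (small nucleolar partners), -0.17 to -0.0051 (exosome), -0.14 to -0.020 (RNA polymerase I), -0.16 to 0.011 (RNA polymerase III) and -0.26 to -0.15 (5S particle). Members that changed sign ranged from -0.22 to 0.10 (NPM1), -0.15 to 0.22 (NPM3), -0.41 to 0.013 (NHP2), -0.49 to 0.15 (RRP9), -0.18 to 0.077 (WDR43), -0.11 to 0.38 (UTP20), -0.23 to 0.045 (DDX10), -0.40 to 0.086 (WDR12) and -0.24 to 0.038 (UBTF). No paired analysis was made, because each array stands for a different hairpin and the labels name no pairing between the groups.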
